A study of Mus musculus with 8 samples.

Results

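Ubiquitin is a small protein that cells attach to other proteins to mark them for destruction by the proteasome, to move them or to switch their function. It is passed from an activating enzyme (E1) to a conjugating enzyme (E2) and from there, with the help of a ligase (E3), to its target, and deubiquitinating proteases take it off again. The genes described here encode the E2 enzymes (Ube2) and 2 families of deubiquitinating proteases, the ubiquitin specific proteases (Usp) and the ubiquitin C-terminal hydrolases (Uchl). They were chosen by name, as every gene of the normalized array table whose symbol starts with Ube2, with Usp and a digit or with Uchl and a digit. This gave 78 of 18097 genes, of which 29 are Ube2, 44 Usp and 5 Uchl genes. A detection p-value, the chance that a negative control bead would be as bright, comes with every gene and array, and genes with one under 0.01 on 4 or more of the 8 arrays were tested. That left 52 of the 78, namely 21 Ube2, 28 Usp and 3 Uchl genes, among 8324 genes tested in all.

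The testes came from MF1 mice at 17.5 dpp (days post partum), an age at which the first wave of germ cells has passed through most of meiotic prophase, up to the end of pachytene and the start of diplotene. All 8 males had a single X chromosome and no Y chromosome, and carried transgenes for Sry, which makes the gonad a testis, and for Eif2s3y, a translation factor that lets spermatogonia proliferate. XEOSry males carried no Zfy gene, and XEZ2OSry males carried in addition a transgene for Zfy2, a zinc finger transcription factor of the Y chromosome, on their X chromosome. There were 4 animals in each group, each with an array of its own, and the question put to the genes was whether they differ between testes without Zfy and testes in which Zfy2 was restored.

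In male germ cells the ubiquitin system has several well known tasks. The X and Y chromosomes are silenced in pachytene spermatocytes, and the silent chromatin carries ubiquitylated histone H2A. Later, histones are marked before they are exchanged for protamines. Ube2b, one of the RAD6 type E2 enzymes, is needed for male fertility in mice, whereas its near-identical partner Ube2a lies on the X chromosome. Uchl1 is a long-used marker of spermatogonia, and mice without the protease gene Usp2 have reduced male fertility.

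No member passed the test. At an adjusted p of 0.05 limma called 5 of 8324 genes (0.0601%), and none of the 52 members, whose lowest adjusted p was 0.108. Differences are given throughout as the log2 signal of XEOSry minus that of XEZ2OSry. The members ranged from -1.07 (Usp2) to 0.57 (Ube2a), and 35 of the 52 differed by less than 0.2. Their median was -0.04, beside a median of 0.07 over all genes tested, and 20 of 52 (38.5%, where 62.0% of all genes tested were) were higher in XEOSry and 32 lower. The 95% intervals of the differences, not adjusted for the number of genes, reached a median of 0.29 and at most 1.09 to either side. Differences smaller than the reach of their own interval could not be told from none. Larger ones did not pass the adjusted threshold either, such as Usp20 at -0.65 (-0.97 to -0.33, adjusted p = 0.108 from limma). Leaving out 1 animal moved 33 of the 35 differences under 0.2 by over 1.5 times. A small shift is a large multiple of a difference near 0, so that this count does not measure how stable they are. Of the other 17, 6 moved by as much, those of Ube2u, Uchl1, Usp3, Usp22, Usp26 and Usp37. The SD among 4 animals had a median of 0.195 in XEOSry and 0.171 in XEZ2OSry.

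At an unadjusted p under 0.05, 3 members were higher in XEOSry (5.77%, where 12.9% of all genes tested were) and 7 were lower (13.5%, where 12.0% of all genes were). The 3 were Ube2a, Usp11 and Usp28, and the 7 were Usp2, Usp8, Usp20, Usp47, Ube2m, Ube2t and Uchl5. The genotypes did not overlap for 2 members that were higher, Usp11 and Usp28 (3.85%, against 6.34% of all genes), and for 4 that were lower, Usp20, Usp39, Usp47 and Ube2t (7.69%, against 4.58%). No member was over 1.5-fold higher in XEOSry (0.973% of all genes were), and 3 were over 1.5-fold lower, Usp2, Usp20 and Ube2u (5.77%, against 6.63%). The count over 1.5-fold lower was 1 to 3 in the alternatives, with Usp2 alone without XEOSry replicate 2. The count over 1.5-fold higher was 0 to 2, and Ube2a reached up to 0.75 (without XEOSry replicate 4), Usp11 0.91 (background removed with no offset) and Uchl1 0.62 (without XEZ2OSry replicate 4). Most of the shares in the main setting lay near those of all genes, and no result about the members follows from them.

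**Figure D1:**
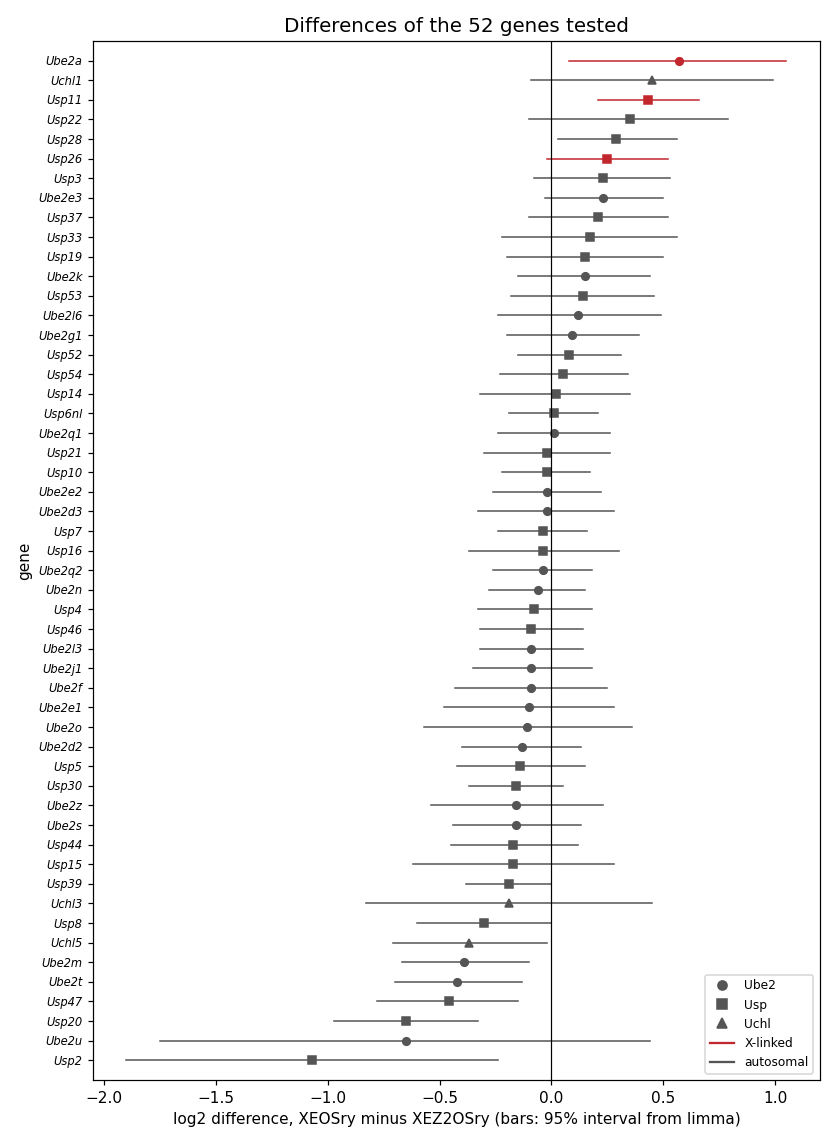
Log2 difference between the genotypes (horizontal axis) for the 52 genes tested (vertical axis), with 95% intervals from limma; circles are Ube2, squares Usp and triangles Uchl genes, and X-linked genes are red. All 3 X-linked members lie to the right of 0, and the wide interval of Ube2u spans -1.75 to 0.44.

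The whole table bears on how these values can be read. The Zfy2 row lay between 6.05 and 6.20 on all 8 arrays and was detected on 0, so that it does not check the labels, whereas Eif2s3y, which both genotypes carry, was detected on all 8. Of 285 X-linked genes tested 277 were higher in XEOSry, with a median of 0.36, and autosomal genes had a median of 0.06. The list of pachytene spermatocyte markers had 35 genes in the table, of which 21 were tested, and 19 of these were lower in XEOSry, with a median of -0.91 and 16 at an unadjusted p under 0.05. Their mean log2 signal ran from 9.14 to 10.36 in XEOSry and from 10.29 to 11.18 in XEZ2OSry, and 10 of the 35, Sycp3, Mael, Hormad1, Adam2 and Tdrd1 among them, were not detected on any array. The mean of 13 Sertoli cell markers, of 15 in the table, ran from 10.15 to 10.72 in XEOSry and from 9.64 to 10.48 in XEZ2OSry, and Gata4 was the marker not detected. Of the 13, 12 were higher in XEOSry, with a median of 0.28. All 9 macrophage markers tested, of 12 in the table, were higher (median 0.31, mean signal 8.32 to 8.87 in XEOSry and 8.08 to 8.68 in XEZ2OSry). All 7 peritubular and stromal markers tested, of 11, were higher too (median 0.29, mean signal 9.13 to 9.80 and 8.61 to 9.59). At an unadjusted p under 0.05 from limma, 1 Sertoli cell marker, 1 macrophage marker and 0 peritubular and stromal markers were higher. In each of these 3 lists 0 were lower at that p. Over all genes tested, 62.0% were higher in XEOSry. No marker of these 3 lists or of the pachytene list passed the adjusted threshold. Of 11 Leydig cell markers 5 were tested, 3 of them higher (median 0.02), and Star, Hsd3b1 and Hsd17b3 were among those not detected on any array. These are bulk samples, in which fewer cells of a type and less RNA per cell cannot be told apart, and the part of cell makeup in the differences below was not tested.

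Among the E2 enzymes tested, the largest positive difference was that of Ube2a, the only RAD6 type gene tested. Ube2a, an X-linked gene whose product ubiquitylates histone H2B and acts in DNA damage tolerance, read 8.53, 9.13, 8.61 and 8.04 (log2 signal) in XEOSry replicates 1 to 4. In XEZ2OSry it read 8.33, 8.04, 7.79 and 7.90. XEOSry replicate 2 stood highest and replicate 4 fell within the range of the other genotype, so that the groups overlapped. The difference was 0.57 (1.48-fold, SE 0.216, n = 4 and 4, adjusted p = 0.161 from limma).

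Its autosomal partner Ube2b was not tested, because its row passed the detection threshold on no array. The signal of that row was nevertheless high, with values of 10.85, 10.85, 10.46 and 10.63 in XEOSry and 11.10, 11.09, 10.83 and 10.62 in XEZ2OSry. Without the filter, the difference was -0.21 (95% interval -0.51 to 0.09, adjusted p = 0.482 from limma). Of all 5127 genes with a mean log2 signal over 8, 141 were detected on no array, so that detection p-values do not follow the signal of these rows and "not detected" is not "absent". The difference of Ube2a to Ube2b within each array was -2.31, -1.73, -1.85 and -2.58 in XEOSry and -2.76, -3.06, -3.04 and -2.73 in XEZ2OSry. Since each gene has probes of its own, the size of these values does not say which gene is expressed more. Their shift between the genotypes was 0.78, with no overlap (exact permutation test, two-sided, p = 0.0286, the smallest that 4 against 4 can give, and 0.0429 adjusted over 3 pairs). The call was lost with any 1 XEZ2OSry animal left out (adjusted p = 0.0857, exact permutation test) and with the replicate number as a block (adjusted p = 0.125, the smallest that 4 pairs can give). Without 1 XEZ2OSry animal the shift was 0.73 to 0.84, still with no overlap. Doubling the one-sided p of 4 against 3 gives at least 0.0571, so that this loss does not say that 1 animal carried the shift. The pair was set up with the shift of X-linked genes already known, and its p is not independent evidence of a direction.

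The E2 enzymes of broad use differed little. Of 8 tested 1 was higher (12.5%, where 62.0% of all genes tested were) and 7 lower in XEOSry, from -0.16 to 0.23. None reached an unadjusted p under 0.05. They include Ube2d2, Ube2d3, Ube2e1 and Ube2l3, which serve many ligases. Ube2z, at -0.16, was at 0.0 without XEZ2OSry replicate 4, and a further row of it, D11Moh35, differed by 0.02. Ube2e3, the member that was higher, read 10.06 ± 0.0620 (mean ± SD, n = 4) in XEOSry and 9.75, 9.68, 9.72 and 10.15 in XEZ2OSry. In XEZ2OSry, replicate 4 stood apart from the other 3 and reached the level of XEOSry. The difference was 0.23 (SE 0.117, adjusted p = 0.246 from limma). Ube2o, a large enzyme that works as E2 and E3 in one, read 10.46, 10.53, 11.20 and 11.29 in XEOSry and 10.87, 10.83, 10.97 and 11.24 in XEZ2OSry, with a difference of -0.11 (95% interval -0.57 to 0.36). It varied more within XEOSry than between the genotypes.

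A further row that belongs to this family stood apart. The row named 1700013N18Rik has the current symbol Ube2d2b and encodes a close relative of Ube2d2, but its name on the array does not match the rule, and it was chosen after its values were seen. It read 8.60, 7.44, 7.21 and 8.53 in XEOSry and 9.52, 10.52, 9.35 and 8.34 in XEZ2OSry. XEOSry replicates 2 and 3 were lowest, XEZ2OSry replicate 2 was highest, and XEZ2OSry replicate 4 lay among the XEOSry values. The difference of -1.49 (2.81-fold, SE 0.470, adjusted p = 0.129 from limma) did not pass, but did without XEZ2OSry replicate 4 (-1.85, adjusted p = 0.0458 from limma). Of 9 such rows under other names 5 were tested, and the other 4 of these differed by -0.13 to 0.20. Hip2, a further row of Ube2k, differed by 0.20, and the Ube2k row itself by 0.15.

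Besides Ube2a, 3 E2 enzymes of DNA repair and of cell division were tested, of which Ube2t alone reached an unadjusted p under 0.05. Ube2t, which ubiquitylates the FANCD2 protein in the repair of DNA crosslinks, read 10.01, 10.02, 9.60 and 9.80 in XEOSry. In XEZ2OSry it read 10.45, 10.38, 10.15 and 10.13, above every XEOSry value. The difference was -0.42 (1.34-fold, SE 0.126, adjusted p = 0.123 from limma). Ube2n, which builds chains linked through lysine 63 of ubiquitin, differed by -0.06 (95% interval -0.28 to 0.15). Ube2s, which extends chains for the anaphase promoting complex, differed by -0.16 (adjusted p = 0.461 from limma). Its partner Ube2c was not detected on any array.

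Of the E2 enzymes of ubiquitin-like proteins, Ube2m and Ube2f share a task. Ube2m, an E2 of the modifier NEDD8 that activates cullin ligases, read 9.02, 8.74, 8.70 and 9.19 in XEOSry and 9.23, 9.42, 9.35 and 9.19 in XEZ2OSry. The highest XEOSry animal, replicate 4, met the lowest XEZ2OSry animal, and the difference was -0.39 (SE 0.127, adjusted p = 0.132 from limma). Ube2f, the other NEDD8 E2, differed by -0.09 (95% interval -0.43 to 0.25), and a further row of it, 2510010F15Rik, by 0.03. Whether Ube2m and Ube2f differ in their response was not tested. The 3 enzymes of the endoplasmic reticulum and of chain extension, Ube2g1, Ube2j1 and Ube2k, ranged from -0.09 to 0.15.

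Ube2u, an E2 known mainly from the testis and urogenital tissue, varied most among all members. It read 10.03, 8.53, 8.0 and 9.63 in XEOSry, where replicates 2 and 3 were low. In XEZ2OSry it read 9.95, 10.57, 9.36 and 8.92, so that the groups overlapped widely. The SD was 0.943 in XEOSry and 0.716 in XEZ2OSry, the widest of all 52 members in either genotype. The difference of -0.65 (95% interval -1.75 to 0.44, adjusted p = 0.415 from limma) was not distinguishable from 0, and single animals moved it, to -0.30 without XEOSry replicate 3 and to -0.98 without XEOSry replicate 1. The related Ube2q1 and Ube2q2 differed by 0.01 and -0.04.

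The 3 C-terminal hydrolases went in both directions. Uchl1, which is abundant in neurons and spermatogonia, read 9.55, 10.07, 10.31 and 9.94 in XEOSry and 9.43, 8.92, 9.68 and 10.03 in XEZ2OSry. XEZ2OSry replicate 2 was lowest and replicate 4 lay within the XEOSry range, and the difference was 0.45 (SE 0.239, adjusted p = 0.266 from limma), or 0.25 without XEZ2OSry replicate 2. The mean of the 11 spermatogonium markers tested, of 19 in the table, ran from 8.34 to 8.60 in XEOSry and from 8.14 to 8.62 in XEZ2OSry. Of the 11, 10 were higher in XEOSry, where 62.0% of all genes tested were, with a median of 0.14. At an unadjusted p under 0.05 from limma, 0 were higher and 1 was lower.

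Uchl3, a hydrolase that also acts on NEDD8, read 11.68, 11.51, 10.82 and 10.79 in XEOSry and 11.82, 11.82, 10.97 and 10.95 in XEZ2OSry. In both genotypes replicates 1 and 2 were high and replicates 3 and 4 low, whereas the genotypes differed by only -0.19 (95% interval -0.83 to 0.45). The Uchl1 to Uchl3 value within arrays shifted by 0.64 (exact permutation test, two-sided, p = 0.286, adjusted p = 0.286 over 3 pairs), and by 0.30 without XEZ2OSry replicate 2 and 0.96 without XEZ2OSry replicate 4. Uchl5, a protease that sits on the proteasome and on the INO80 chromatin remodelling complex, differed by -0.37 (SE 0.152, adjusted p = 0.180 from limma).

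All X-linked Usp genes that could be tested were higher in XEOSry. Usp11, a protease of BRCA2 and of DNA repair, read 6.80, 6.96, 7.12 and 7.05 in XEOSry and 6.66, 6.42, 6.53 and 6.60 in XEZ2OSry. The groups did not overlap, on a row that lay near the lower end of detected signals and was detected on 4 XEOSry and 3 XEZ2OSry arrays. The difference was 0.43 (1.35-fold, SE 0.101, adjusted p = 0.112 from limma). Usp26, a gene of the X chromosome expressed chiefly in the testis, read 6.86, 7.24, 6.83 and 6.79 in XEOSry and 6.82, 6.58, 6.60 and 6.71 in XEZ2OSry. Usp26 too lay near the lower end of detected signals, and was detected on 3 XEOSry and 3 XEZ2OSry arrays. It overlapped between the groups and differed by 0.25 (SE 0.119, adjusted p = 0.225 from limma), or by 0.15 without XEOSry replicate 2, its highest animal. The size of both differences depended on how background was treated, since they were 0.91 for Usp11 and 0.50 for Usp26 once background was removed with no offset (normexp, adjusted p = 0.0921 and 0.178 from limma).

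Usp4, the autosomal paralogue of Usp11 that acts in RNA splicing, differed by -0.08 (95% interval -0.33 to 0.18). The Usp11 to Usp4 value within arrays was -1.74, -1.37, -1.62 and -1.71 in XEOSry and -1.96, -2.15, -2.21 and -2.15 in XEZ2OSry. It shifted by 0.51 with no overlap (exact permutation test, two-sided, p = 0.0286, adjusted p = 0.0429 over 3 pairs), again for a pair set up with the X-linked shift known. This call too was lost with any 1 XEZ2OSry animal left out and with the block, at the same adjusted p of 0.0857 and 0.125 (exact permutation tests). Without 1 XEZ2OSry animal the shift was 0.48 to 0.56, still with no overlap. Together with Ube2a, the 3 X-linked members had differences of 0.25, 0.43 and 0.57, beside the median of 0.36 over all X-linked genes, while the 49 autosomal members had a median of -0.06 beside 0.06 over autosomal genes. The rows of the other X-linked members, Usp9x, Usp27x and Uchl5ip, and of the Y-linked Usp9y, which these males lack, were not detected on any array.

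**Figure D2:**
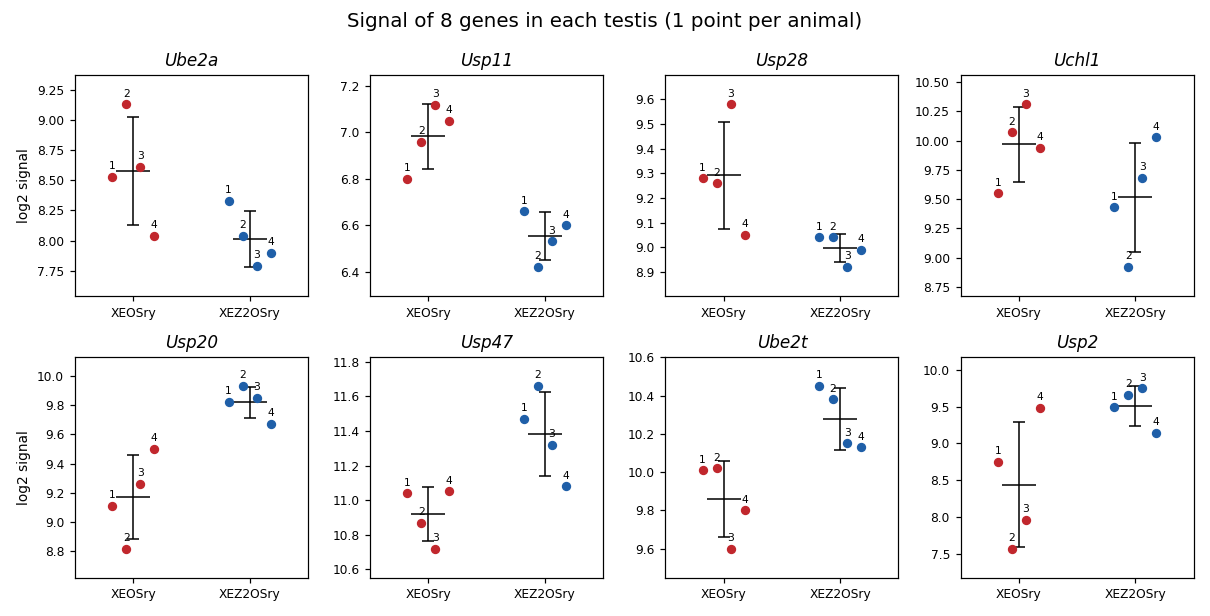
Log2 signal (vertical axis) of 8 genes in each of the 4 XEOSry (red) and 4 XEZ2OSry (blue) testes, numbered by replicate, with the mean and SD in black. Usp11, Usp28, Usp20, Usp47 and Ube2t separate the genotypes, while the single animals of Ube2a, Uchl1 and Usp2 overlap.

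Apart from Usp11, which is given above with the X-linked genes, 10 proteases that act on chromatin and in DNA repair were tested, with 4 higher and 6 lower, from -0.46 to 0.35. Usp47, which stabilizes DNA polymerase beta in base excision repair, read 11.04, 10.87, 10.72 and 11.05 in XEOSry and 11.47, 11.66, 11.32 and 11.08 in XEZ2OSry. The groups touched without overlapping, since XEZ2OSry replicate 4 stood just above the highest XEOSry animal. The difference was -0.46 (1.38-fold, SE 0.138, adjusted p = 0.122 from limma). Usp28, which counteracts the loss of MYC and takes part in the DNA damage response, read 9.28, 9.26, 9.58 and 9.05 in XEOSry. In XEZ2OSry it read 9.04, 9.04, 8.92 and 8.99, with the gap to XEOSry replicate 4 as small as 0.01. The difference was 0.29 (SE 0.116, adjusted p = 0.168 from limma). Usp3 and Usp22, both of which remove ubiquitin from histones, differed by 0.23 and 0.35 (adjusted p = 0.307 and 0.290 from limma), with ranges of 0.15 to 0.33 and 0.22 to 0.50 over single animals left out. Usp7 and Usp16, which act on p53 regulation and on histone H2A, each differed by -0.04.

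Usp1, which removes ubiquitin from FANCD2 and thus reverses what Ube2t does, was detected on 1 array and was not tested. Its row read 9.30, 8.67, 8.24 and 9.14 in XEOSry and 9.79, 10.18, 9.54 and 9.18 in XEZ2OSry, with XEOSry replicate 1 above XEZ2OSry replicate 4. Without the filter the difference was -0.83 (95% interval -1.46 to -0.21, adjusted p = 0.203 from limma). Of the 26 members that were not tested, 20 were detected on no array and 6 on 1 to 3 arrays. Usp1 and Ube2b were the only 2 of them with a mean log2 signal over 8, and the other 24 stayed between 5.89 and 7.17 on every array.

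Proteases of membranes and organelles included one of the clearest separations. Usp20, which acts on hypoxia signalling and receptor recycling, read 9.11, 8.82, 9.26 and 9.50 in XEOSry and 9.82, 9.93, 9.85 and 9.67 in XEZ2OSry. Every XEZ2OSry animal was above every XEOSry animal, and the difference was -0.65 (1.57-fold, SE 0.143, unadjusted p = 0.00134, adjusted p = 0.108 from limma). Its close paralogue Usp33 read 10.25, 10.44, 10.13 and 9.64 in XEOSry and 10.16, 9.90, 9.75 and 9.97 in XEZ2OSry. The groups overlapped, with a difference of 0.17 (95% interval -0.22 to 0.56), which was 0.06 without XEOSry replicate 2 and 0.33 without XEOSry replicate 4. Usp8, a protease of endosomes that in the mouse is strongly expressed in testis, was just inside the detection rule, with 4 arrays, and differed by -0.30 (adjusted p = 0.199 from limma). Just outside it, with 3 arrays each, were Ube2g2, at 6.59 to 6.79, and Usp18, at 6.67 to 6.98.

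Usp2, a protease of the circadian clock and of the cell cycle, had the widest difference of all members. It read 8.75, 7.57, 7.96 and 9.48 in XEOSry, where replicates 2 and 3 were not detected. In XEZ2OSry it read 9.49, 9.66, 9.75 and 9.14 and was detected on all 4 arrays. XEOSry replicate 4 was above XEZ2OSry replicate 4, so that the groups overlapped, and the SD was 0.846 in XEOSry against 0.270 in XEZ2OSry. The difference was -1.07 (2.10-fold, 95% interval -1.90 to -0.24, adjusted p = 0.138 from limma). Of the proteases that act in RNA processing, Usp39, a splicing factor without protease activity, read between 9.73 and 9.86 in XEOSry and between 9.89 and 10.07 in XEZ2OSry. It did not overlap, with a difference of -0.19 (SE 0.0844, adjusted p = 0.207 from limma). Usp14 and Usp5, which recycle ubiquitin at the proteasome and from free chains, differed by 0.02 and -0.14. Usp46, which needs WD repeat partners, differed by -0.09. Members not described singly lay between -0.17, as Usp44 did, and 0.21, the value of Usp37, which ran from 0.15 to 0.32 with 1 animal left out.

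**Figure D3:**
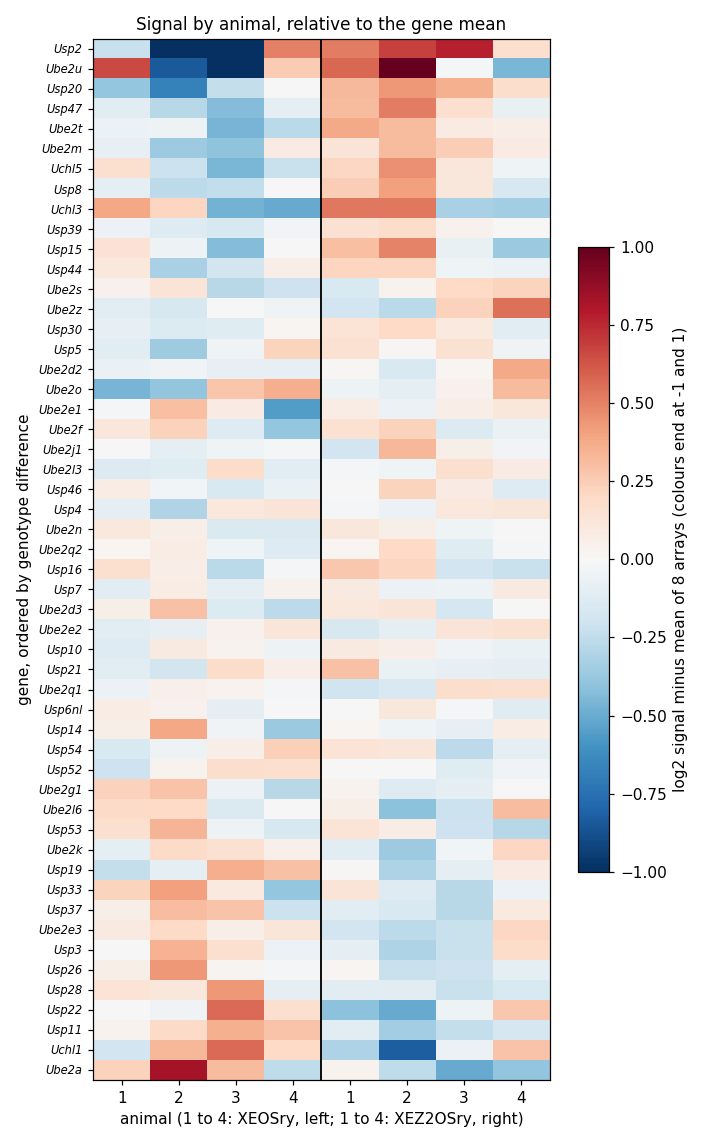
Log2 signal of the 52 genes tested (rows, ordered by genotype difference) in each animal (columns, 4 XEOSry on the left and 4 XEZ2OSry on the right), as the distance from the gene's mean over 8 arrays. Usp2 and Ube2u have the widest range, and Uchl3 separates replicates 1 and 2 from 3 and 4 in both genotypes.

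Some of the genes that had negative differences shared their lowest animals with the pachytene markers. The mean of the 21 pachytene markers was 10.12, 9.14, 9.25 and 10.36 in XEOSry replicates 1 to 4, and 10.91, 11.18, 10.87 and 10.29 in XEZ2OSry. XEOSry replicates 2 and 3 were thus the lowest animals for the markers, as they were for Usp2, Ube2u, Usp1 and 1700013N18Rik, and XEZ2OSry replicate 2 was the highest for the markers and for each of these except Usp2. The genes of this comparison were picked after their values were seen, and genes picked as lower in XEOSry tend to have their lowest animals there. The share of all genes tested with the same lowest animals is not given, so that no trait of these genes follows. Of the other members lower at an unadjusted p under 0.05, Usp8, Usp47 and Ube2m also had XEOSry replicates 2 and 3 lowest. Usp20, Ube2t and Uchl5 did not. The replicate 4 animals of both genotypes differed little in the markers, at 10.36 and 10.29. The part of the markers in the differences of these genes was not tested.

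**Figure D4:**
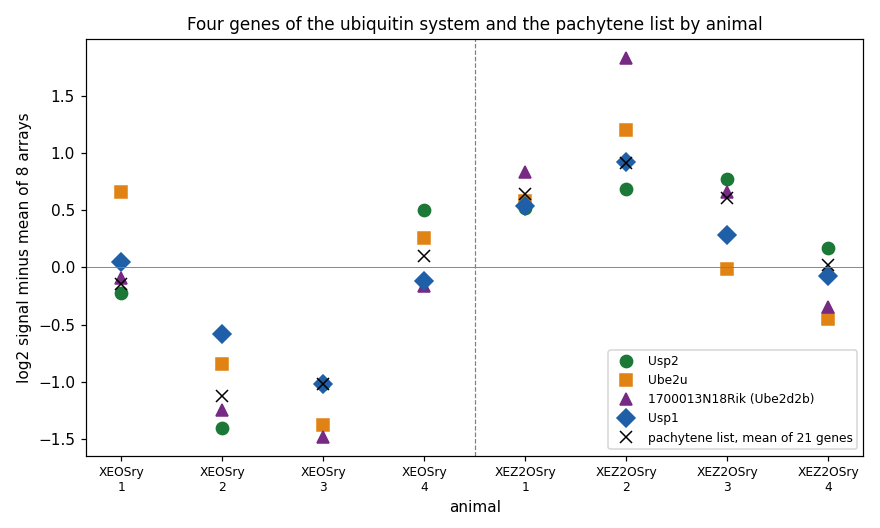
Log2 signal minus the mean of 8 arrays (vertical axis) in each animal (horizontal axis) for Usp2, Ube2u, Usp1, 1700013N18Rik and the mean of 21 pachytene markers. XEOSry replicates 2 and 3 are lowest for all 5 series, and both replicate 4 animals lie close together for the markers.

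The count of members past the adjusted threshold rested on the replicate 4 animals. Without XEOSry replicate 4, 2 members passed, Usp2 at -1.42 and Usp20 at -0.76 (both adjusted p = 0.0434 from limma), where 4.76% of all genes did. Without XEZ2OSry replicate 4, 2 members passed, Usp20 at -0.70 and Usp47 at -0.57 (both adjusted p = 0.0458 from limma), where 6.23% did. With weights for each array, 3 passed, Usp20 at -0.72, Usp47 at -0.47 and Usp11 at 0.38 (adjusted p = 0.0355, 0.0480 and 0.0492 from limma), where 7.52% did. With both animals kept and arrays weighted equally, none did.

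The promoters of the 4 members with no overlap and an unadjusted p under 0.01 are shown because they are the clearest separations among the members, 3 of them lower and 1 higher where Zfy2 was absent. Each is the RefSeq sequence (GRCm38.p6) from 250 bases before to 50 bases after the start, and was searched on both strands. The first motif was AGGCCT, known as a core motif of human ZFX, the X-linked relative of Zfy2. The core of the cyclic AMP response element was searched as TGACG. The CCAAT box was searched by its letters, and the GC box as GGGCGG. Capitals mark matches on either strand, and no 2 matches overlap.
Usp20, chr2:30982029-30982328 (+): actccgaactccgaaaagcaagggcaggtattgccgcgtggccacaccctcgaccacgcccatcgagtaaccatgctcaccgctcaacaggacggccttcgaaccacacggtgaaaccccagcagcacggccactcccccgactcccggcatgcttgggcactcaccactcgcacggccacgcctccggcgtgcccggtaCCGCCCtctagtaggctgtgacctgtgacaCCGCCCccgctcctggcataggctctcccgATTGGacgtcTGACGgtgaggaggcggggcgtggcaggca
Usp47, chr7:112023256-112023555 (+): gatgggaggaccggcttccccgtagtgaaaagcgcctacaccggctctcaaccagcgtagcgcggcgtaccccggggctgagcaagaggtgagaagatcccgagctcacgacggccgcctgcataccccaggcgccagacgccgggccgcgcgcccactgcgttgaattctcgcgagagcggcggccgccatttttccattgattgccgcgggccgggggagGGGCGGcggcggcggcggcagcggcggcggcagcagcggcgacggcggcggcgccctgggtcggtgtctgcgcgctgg
Ube2t, chr1:134962315-134962614 (+): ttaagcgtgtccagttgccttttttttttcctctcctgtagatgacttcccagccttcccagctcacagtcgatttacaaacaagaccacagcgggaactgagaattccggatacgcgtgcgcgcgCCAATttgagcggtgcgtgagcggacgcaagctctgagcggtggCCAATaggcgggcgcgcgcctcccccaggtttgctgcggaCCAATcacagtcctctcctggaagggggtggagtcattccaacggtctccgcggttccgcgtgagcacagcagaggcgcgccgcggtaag
Usp11, chrX:20703659-20703958 (+): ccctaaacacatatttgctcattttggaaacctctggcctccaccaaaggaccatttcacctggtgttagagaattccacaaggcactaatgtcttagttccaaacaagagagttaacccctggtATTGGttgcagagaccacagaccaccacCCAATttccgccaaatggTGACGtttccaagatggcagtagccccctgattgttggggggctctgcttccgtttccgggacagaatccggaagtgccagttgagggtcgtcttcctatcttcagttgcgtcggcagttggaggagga

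None of the 4 windows holds AGGCCT, which 10.3% of 32851 promoters hold. The Ube2t window holds 3 CCAAT boxes, the Usp11 window 2 and the Usp20 window 1, where 37.4% of promoters hold at least 1. The core TGACG has 1 match each in the Usp20 and Usp11 windows (20.8% of promoters), and GGGCGG has 2 matches in the Usp20 window and 1 in the Usp47 window (35.7%). Promoters were found for 42 of the 52 members, 51 in number, and the ZFX motif was in 1.96% of them, the CCAAT box in 25.5%, TGACG in 29.4% and the GC box in 76.5%. Over 8141 promoters of all genes tested these shares were 10.7%, 38.6%, 31.3% and 63.4%. A match of letters is a description and not a binding site.

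The rest of the ubiquitin system was read from 6 lists, of which 115 genes were in the table and 92 were tested. None of the 92 passed the adjusted threshold in the main setting. Cul4b, Ubl4 and March10 did with array weights, without XEOSry replicate 4 and without XEZ2OSry replicate 4. Rnf4 did in the first and the last of these (adjusted p of all these calls from 0.0323 to 0.0485 from limma). In these settings 7.52%, 4.76% and 6.23% of all genes passed, beside 4, 3 and 4 of the 92. At an unadjusted p under 0.05 9 were higher in XEOSry (9.78%, where 12.9% of all genes tested were) and 5 lower (5.43%, against 12.0%), both below the shares of all genes, and the median was 0.06. All 8 X-linked genes among them were higher in XEOSry, from 0.17 to 0.70, and the 84 autosomal genes had a median of 0.03. Cul4b, the X-linked scaffold of a cullin ligase, read 9.96, 10.26, 10.24 and 9.64 in XEOSry and 9.39, 9.24, 9.30 and 9.39 in XEZ2OSry. The difference was 0.70 with no overlap (1.62-fold, SE 0.142, adjusted p = 0.107 from limma). Ubl4, the X-linked ubiquitin-like protein now called Ubl4a, differed by 0.61 and did not overlap (adjusted p = 0.108 from limma). Ube1x, a row of the E1 gene Uba1, was detected on 4 XEOSry arrays and 1 XEZ2OSry array, at signals of 6.60 to 7.02. It thus entered the genes tested through the genotype in which it was higher. Ube1x differed by 0.27 (adjusted p = 0.131 from limma), and by 0.53 once background was removed with no offset.

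The largest difference in these lists was that of March10, a ligase of elongating spermatids. It read 9.23, 7.62, 7.61 and 9.78 in XEOSry, and 10.63, 10.60 and 9.64 in XEZ2OSry replicates 1, 3 and 4, with replicate 2 highest. As for the pachytene markers, XEOSry replicates 2 and 3 were the lowest animals. The difference was -1.91 (3.75-fold, SE 0.513, adjusted p = 0.117 from limma). Stambp, a protease of lysine 63 chains at endosomes, differed by -0.73 (adjusted p = 0.149 from limma). Rnf4, a ligase that reads SUMO chains, differed by 0.47 with no overlap (adjusted p = 0.112 from limma). Among the other genes with the widest difference of their lists were Senp2 at -0.41, Keap1 at -0.37, Appbp1 at -0.30, Anapc5 and Cdc16 at 0.28 and Sumo2 at 0.20.

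**Figure D5:**
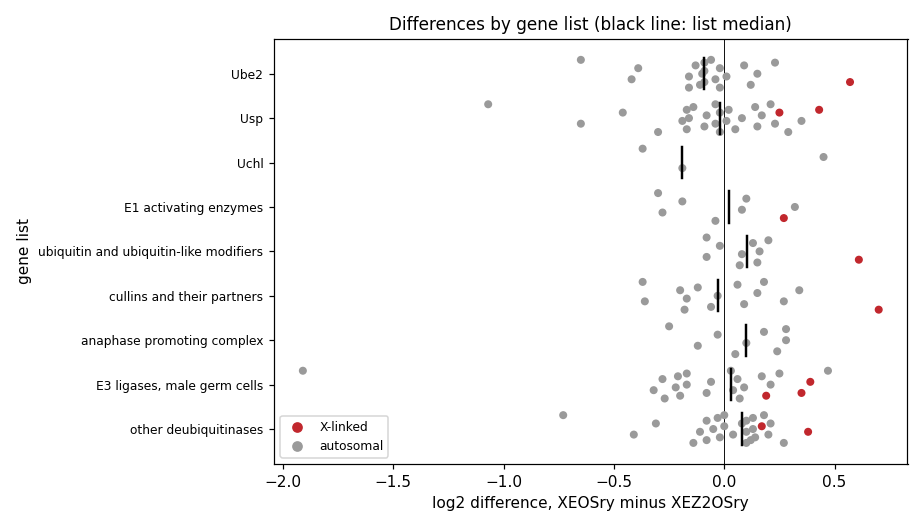
Log2 difference (horizontal axis) of every gene tested in the Ube2, Usp and Uchl families and in 6 other lists of the ubiquitin system (vertical axis), with the list median as a black line and X-linked genes in red. March10 is at -1.91, and all 11 X-linked genes lie above 0.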

How the data were processed

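Total RNA of whole testis, 1 animal per array, was hybridized to single-colour Illumina BeadChips, and GenomeStudio 2011.1 is named in the submitters' processing notes. The log2 values used here, 1 per gene and array and between 5.72 and 15.48, were quantile normalized by the authors before deposit and were used as given. They also deposited linear intensities called non-normalized, whose array medians of 105.5 to 106.3 show that they were already aligned, and detection p-values, which the authors' software set against negative control beads. Between 8063 and 8434 genes were detected per array, and the number of arrays limits the precision. The methods state fewer animals per genotype than the 4 in the labels.

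A linear model per gene with moderated variance (limma 3.58.1, R 4.3.3) gave two-sided p-values, adjusted by Benjamini-Hochberg over all 8324 genes tested, with 0.05 as threshold. Within-array differences of 3 gene pairs were compared by exact permutation over 70 assignments, counting absolute shifts at least as large. The fit was tested on simulated data. Symbols were matched to GRCm38.p6 names, 74 of 78 members by current symbol and 4 by synonym, and the files give no probe positions.

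The members and lists were chosen with earlier results of these data known. Named are all X-linked members tested, those without overlap past 1.5-fold, the pairs, and from each role list the member with the widest difference and the one with the highest signal. From each other list of the ubiquitin system the 2 widest differences are named, apart from 1 gene that is not reported here. Other genes named were chosen after their values were seen. Ube2b was kept in its pair although it was not detected. Alternatives covered the filter, background correction, scaling, moderation, array weights, a replicate block and each array left out. Usp6nl, a Rab GTPase activator, and Uchl5ip, now the augmin gene Haus7, carry such names without being ubiquitin proteases, and Usp52 is now Pan2.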

Additional observations from a re-analysis of the deposited data

Results flagged for a closer look

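In 4 of 98 groups of 4 animals examined, 1 animal lay far from the other 3, and chance alone gives about 1 in 20. Ube2e3 read 10.15 in XEZ2OSry replicate 4, where the lowest of the group was 9.68 and the median 9.74. Usp26 read 7.24 in XEOSry replicate 2, with a group median of 6.85. Among the other genes of the ubiquitin system, the ligase gene Huwe1 read 8.55 in XEZ2OSry replicate 4, with a median of 7.82. The ligase gene Pja1 read 11.64 in XEOSry replicate 3, with a median of 11.28.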

How the results depend on the processing

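No member passed the adjusted threshold in any alternative except array weights (3), without XEOSry replicate 4 (2) and without XEZ2OSry replicate 4 (2), so that leaving out 1 animal gave 0 to 2. Of the 92 other genes of the ubiquitin system 4, 3 and 4 passed in these settings, where 7.52%, 4.76% and 6.23% of all genes did. Members higher at an unadjusted p under 0.05, 3 in the main setting, were 5 with array weights and 1 to 6 with 1 animal left out, with 1 without XEOSry replicate 3 or XEZ2OSry replicate 3. They were 6 once replicates 1 and 2 were set against 3 and 4 by an added term, an alternative chosen, like normexp with offset 0, after seeing the data. Members lower ranged from 5 to 9, and the median difference moved by less than the spread between animals. The shares of all genes at an unadjusted p under 0.05 were not counted in these alternatives. No result about the members follows from these counts. The shift of Ube2a minus Ube2b (0.65 to 0.93 with 1 animal left out) and that of Usp11 minus Usp4 (0.43 to 0.56) lost their calls with any XEZ2OSry animal left out (adjusted p = 0.0857, exact permutation). They also did so with a replicate block (shifts of 0.78 and 0.51, adjusted p = 0.125), and 4 pairs are too few to pass. For Usp11 minus Usp4 the loss without an XEZ2OSry animal came from the adjustment over the pairs, and two-sided p-values counted absolute shifts, where doubling the one-sided p gives at least 0.0571 with any animal left out. Background correction and scaling kept both calls, with shifts of 0.76 to 0.90 and of 0.47 to 0.99, the highest with offset 0. The shift of Uchl1 minus Uchl3 ran from 0.30 to 0.96 with 1 animal left out. Same-numbered animals correlated at 0.426, -0.232, 0.327 and -0.421, so that the numbers do not pair them. Some members near 0 changed sign. Ube2q1 was -0.0026 with normexp, -0.0027 with linear intensities, -0.0021 with offset 0 and -0.06 to 0.07 with 1 animal left out. Over single animals left out, Ube2u ran from -0.98 to -0.30, Ube2f from -0.18 to 0.03, Ube2o from -0.25 to 0.03, Usp14 from -0.11 to 0.14 and Usp4 from -0.13 to 0.01. The causes were not tested.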
